A study of Mus musculus with 38 samples.

Results

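The glucocorticoid receptors and a set of their target genes were followed together with Hif3a in the hypothalamus of Huntington's disease mouse models. The 9 genes were Nr3c1 and Nr3c2, which encode the glucocorticoid and the mineralocorticoid receptor, the hormone-induced genes Fkbp5, Sgk1, Tsc22d3, Zbtb16, Pdk4 and Klf9, and Hif3a, out of 19937 genes with a probe set of a single symbol. Hif3a was chosen by its lower level in vector-injected mice, so its values in those comparisons are given as a description without a test. Each gene had 1 such probe set, and all 9 were measured on all 38 arrays.

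The arrays held hypothalamic RNA of female FVB/N mice, 1 mouse per array. In the AAV set, wild-type mice received bilateral hypothalamic injections at 8 weeks of age of a serotype 5 vector, in which the human Syn-1 promoter, active in neurons, drove an N-terminal huntingtin (HTT) fragment of 853 amino acids. The fragment carried 18 CAG repeats in 18Q mice (n = 5) and 79 CAG repeats in 79Q mice (n = 8), and both groups were taken at 12 weeks of age, 4 weeks after injection, with uninjected wild-type mice of that age (WT control, n = 5). BACHD mice carry a transgene for full-length HTT with 97 CAG repeats expressed ubiquitously, and were taken at 2 months of age (n = 6, against 6 WT mice) and at 10 months of age (n = 5, against 3 WT mice). Since the WT control mice were not injected, the HTT fragment, the vector and the injection cannot be told apart in 18Q vs. WT control and 79Q vs. WT control, and both comparisons share the same 5 control arrays. The 3 sets were taken as normalized separately, which was inferred from the values and is not given in the sources used here, so levels were tested only within a set and the levels of 1 gene in different sets stand side by side without a comparison.

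Glucocorticoids enter the brain from the blood and bind both receptors, which are held by Hsp90 chaperone complexes until hormone is bound and then act on DNA in the nucleus. The targets include feedback and effector genes: Fkbp5 encodes a co-chaperone that lowers the hormone affinity of the receptor, Tsc22d3 encodes the anti-inflammatory leucine zipper protein GILZ, Sgk1 a kinase that regulates ion channels and transporters, Pdk4 a mitochondrial kinase that inhibits pyruvate dehydrogenase, and Zbtb16 and Klf9 zinc finger transcription factors. Hif3a encodes an alpha subunit of the hypoxia-inducible factors, and some of its isoforms inhibit the other alpha subunits. In the hypothalamus these hormones close the feedback loop of the stress axis on the neurons that release corticotropin-releasing hormone.

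The receptors bind a palindromic response element in DNA (GRE), and hypoxia-inducible factors bind a short core, so the RefSeq promoter windows (build GRCm38.p6, 250 bases before to 50 bases after a transcript's start) were searched on both strands. Windows were matched for 7 of the 9 genes, 14 windows in all, without Zbtb16 and Nr3c1. The windows of 1 chromosome were left out of this look-up but kept in the shares over all windows. A gene missing here therefore need not lack a window. The palindrome GNACANNNTGTNC was found in 1 of the 14 windows, that of an Sgk1 transcript, and in 0.475% of all 32851 windows of the table. Its half-site AGAACA was found in 4 windows of 2 genes, Sgk1 and Tsc22d3 (19.0% of all windows), and the core ACGTG in 3 windows, 1 each of Sgk1, Fkbp5 and Klf9 (19.6% of all windows). The palindrome and its half-site overlap where both match. The 3 windows printed here were picked because their genes carry the results below, namely the one with the palindrome, that of Hif3a, and that of Fkbp5, the only gene of the set that passed a test across all probe sets. In the Sgk1 window (chr10:21993640-21993939, plus strand) the capitals mark the palindrome, which starts at position −188 from the transcript's start. The Hif3a window (chr7:17062378-17062677, minus strand) held none of the searched letters. The core was searched only as ACGTG, so other forms, such as the GCGTG in the Hif3a window, were not counted in any window. In the Fkbp5 window (chr17:28486100-28486399, minus strand) the capitals mark the palindromic core CACGTG, which counts on both strands.
Sgk1: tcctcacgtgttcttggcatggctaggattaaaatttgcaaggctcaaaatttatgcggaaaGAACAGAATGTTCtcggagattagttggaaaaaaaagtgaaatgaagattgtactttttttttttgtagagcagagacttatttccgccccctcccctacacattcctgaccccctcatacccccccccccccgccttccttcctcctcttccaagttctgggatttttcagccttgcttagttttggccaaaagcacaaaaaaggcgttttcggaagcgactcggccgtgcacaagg
Hif3a: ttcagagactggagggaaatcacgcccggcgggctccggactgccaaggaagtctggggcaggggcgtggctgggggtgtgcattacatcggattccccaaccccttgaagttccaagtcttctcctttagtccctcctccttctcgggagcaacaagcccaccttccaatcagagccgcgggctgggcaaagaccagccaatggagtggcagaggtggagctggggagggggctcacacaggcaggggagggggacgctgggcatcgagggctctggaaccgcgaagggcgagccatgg
Fkbp5: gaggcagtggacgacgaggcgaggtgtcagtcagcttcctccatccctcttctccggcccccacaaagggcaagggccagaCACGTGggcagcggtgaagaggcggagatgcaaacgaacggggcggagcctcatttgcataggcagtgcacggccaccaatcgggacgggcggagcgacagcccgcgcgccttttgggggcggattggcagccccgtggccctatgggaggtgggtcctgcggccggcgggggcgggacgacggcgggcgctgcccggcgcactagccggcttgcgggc
A match describes letters in the window and is not a binding site shown by these data.

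Array medians ranged between 7.16 and 7.46 on the log2 scale and arrays of a set correlated at 0.985 or higher. The 15 measured hypothalamus markers differed in level. Hcrt, the orexin precursor, had the highest mean and ranged between 11.80 and 12.99. Pmch, the precursor of melanin-concentrating hormone, ranged between 11.72 and 12.62 on all arrays. Crh, corticotropin-releasing hormone, had the lowest mean and ranged between 6.10 and 6.70, below the array medians. Avp, the vasopressin precursor, had the largest spread, between 8.97 and 12.02. Dissections also differed in neighbouring tissue. The mean log2 level of 12 thalamus markers ranged between 8.32 and 9.99 in BACHD mice and between 8.46 and 10.00 in WT mice at 2 months, and the pituitary hormone Prl between 5.15 and 13.58 over all arrays. In the injected mice, 10 measured microglia and macrophage markers averaged 0.87 higher in 18Q and 0.75 higher in 79Q mice than in WT control mice, and 9 immune cell markers 1.40 and 1.09 higher, with no overlap of the groups in either list.

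Hif3a lay below the median of all probe sets on 37 of 38 arrays, all but WT control replicate 5, and it was lower in both injected groups, which is what it was selected on. It read 6.55, 6.72, 6.84, 6.62 and 6.71 in 18Q mice, and 6.32 at the lowest, 6.66 at the median and 6.76 at the highest in 79Q mice, against 6.77, 6.95, 7.13, 7.44 and 7.34 in WT control mice (log2 intensity). All 79Q arrays lay below all WT control arrays by a narrow margin (6.76 against 6.77), while 18Q overlapped with WT control in 1 array of each group. The log2 difference was −0.44 (SE 0.11) in 18Q vs. WT control and −0.50 (SE 0.10) in 79Q vs. WT control, with an SD of 0.11 in 18Q and 0.15 in 79Q mice, against 0.28 in WT control mice. Without the 2 highest control mice, replicates 5 and 7, the differences were −0.26 and −0.32. Separation with 79Q lower was found for 0.938% of all probe sets, a share given beside Hif3a with nothing read from it.

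**Figure D1:**
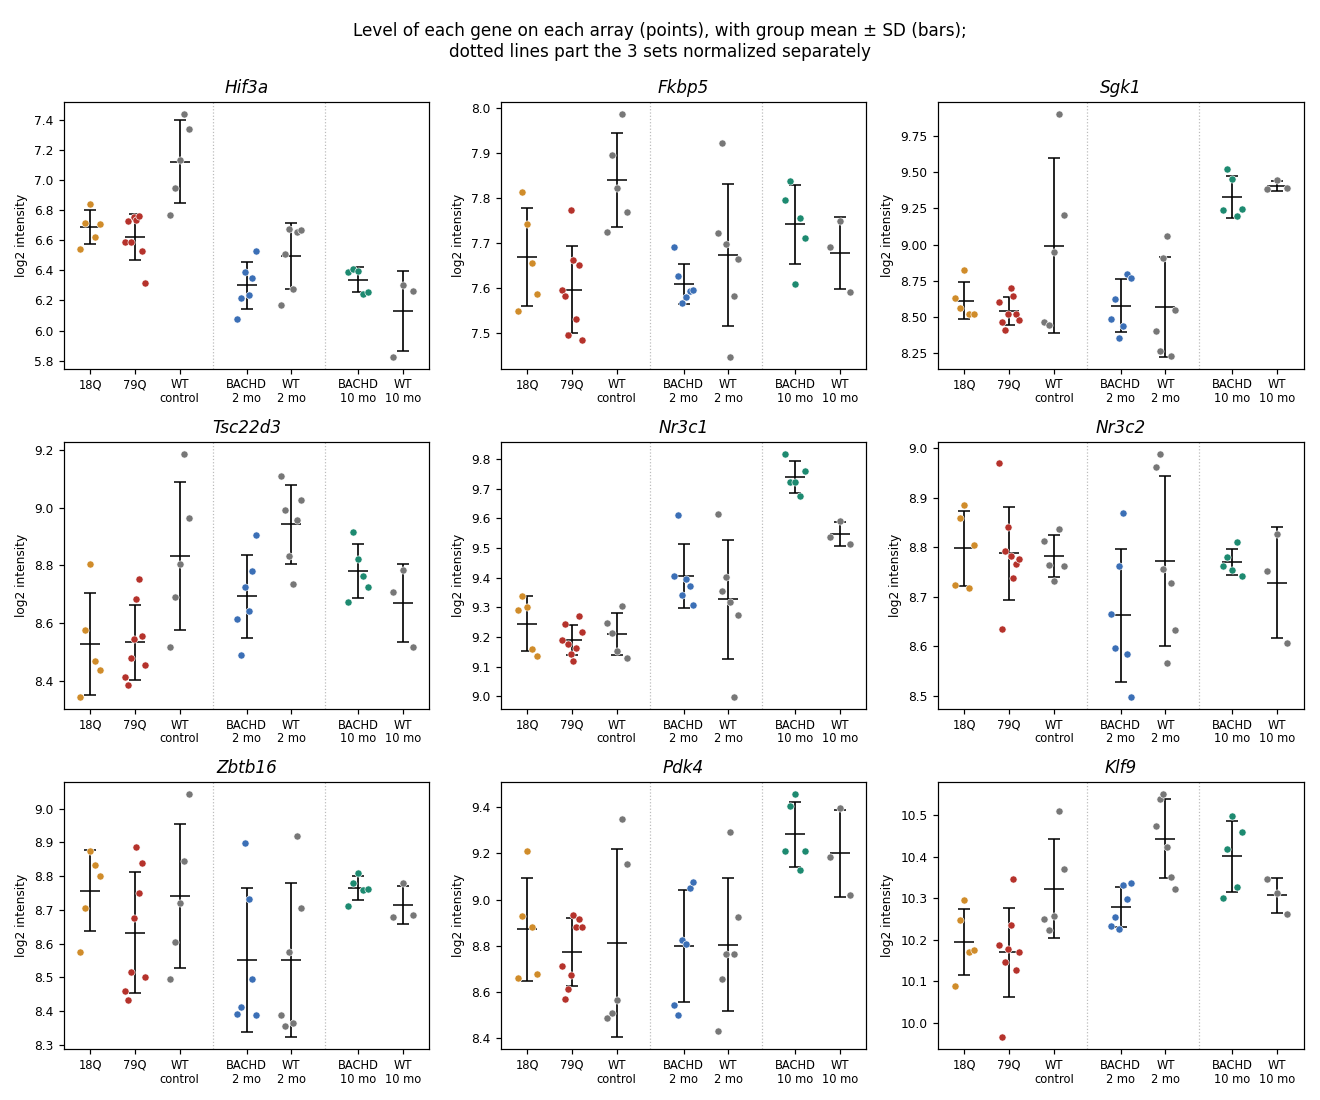
Log2 intensity (y axis) of the 9 genes on each of the 38 arrays (points) by group (x axis), with the group mean and SD as bars, in the 3 sets parted by dotted lines. Hif3a, Sgk1 and Tsc22d3 spread widely in WT control mice, where replicate 5 was the highest array for all 3, and Nr3c1 was higher in all 5 BACHD mice than in all 3 WT mice at 10 months.

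Among the 8 other genes, Fkbp5 fell in 79Q vs. WT control and was the only one that passed the test after adjustment over all 34760 probe sets. Fkbp5 read 7.55, 7.81, 7.74, 7.65 and 7.59 in 18Q mice, and 7.48 at the lowest, 7.59 at the median and 7.77 at the highest in 79Q mice, against 7.72, 7.90, 7.82, 7.99 and 7.77 in WT control mice. All 8 of the 79Q mice lay below the control mean, though the highest of them reached into the control range. The change in 79Q mice was −0.24 (SE 0.058, 95% interval −0.37 to −0.12), a level 0.845 times that of WT control mice (limma, adjusted p = 0.0346, exact permutation p = 0.00311, two-sided). In 18Q mice it was −0.17 (SE 0.064, adjusted p = 0.244, exact permutation p = 0.0476), with all 5 mice below the control mean. The call rested on single arrays: the adjusted p ranged between 0.0151 and 0.126 when each array was left out in turn, and was above 0.05 without 79Q replicate 1, 2, 3, 6 or 8 or without WT control replicate 2, 4 or 5, while the difference stayed between −0.27 and −0.21. Without WT control replicates 5 and 7 together the difference was −0.22 with an adjusted p of 0.197, and with the replicate number as a block −0.20 with an adjusted p of 0.177, so the call was lost in both.

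Sgk1 and Tsc22d3 had larger differences with a wider spread. Sgk1 read 8.63, 8.56, 8.82, 8.52 and 8.52 in 18Q mice, and 8.41 at the lowest, 8.52 at the median and 8.70 at the highest in 79Q mice, against 8.47, 8.44, 8.95, 9.90 and 9.21 in WT control mice. The values covered a range of 0.31 in 18Q and 0.29 in 79Q mice, against 1.46 in WT control mice, of which 2 lay within the range of the injected mice. The differences were −0.38 (SE 0.19, adjusted p = 0.432, exact permutation p = 0.230) in 18Q and −0.45 (SE 0.17, adjusted p = 0.225, exact permutation p = 0.0334) in 79Q mice. Without WT control replicates 5 and 7 they were −0.0063 in 18Q and −0.076 in 79Q mice, so both rested on those 2 arrays; without replicate 5 alone they were −0.15 and −0.22.

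Tsc22d3 read 8.34, 8.58, 8.80, 8.47 and 8.44 in 18Q mice, and 8.39 at the lowest, 8.51 at the median and 8.75 at the highest in 79Q mice, against 8.52, 8.69, 8.80, 9.19 and 8.96 in WT control mice. The 2 highest control mice were again replicates 5 and 7, and the groups overlapped. The differences were −0.31 (SE 0.11, adjusted p = 0.210, exact permutation p = 0.0714) in 18Q and −0.30 (SE 0.099, adjusted p = 0.151, exact permutation p = 0.0148) in 79Q mice, and −0.14 in both without those 2 control mice. Klf9 read 10.09, 10.25, 10.30, 10.17 and 10.18 in 18Q mice, and 9.97 at the lowest, 10.17 at the median and 10.35 at the highest in 79Q mice, against 10.25, 10.22, 10.26, 10.51 and 10.37 in WT control mice. Its differences were −0.13 (SE 0.065, adjusted p = 0.449, exact permutation p = 0.0635) in 18Q and −0.15 (SE 0.059, adjusted p = 0.231, exact permutation p = 0.0295) in 79Q mice, with 1 of the 8 79Q mice above the control mean. Without WT control replicates 5 and 7 the Klf9 differences were −0.048 in 18Q and −0.074 in 79Q mice.

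The receptors, Zbtb16 and Pdk4 gave no call in the injected mice. Nr3c1 differed by 0.036 in 18Q and −0.019 in 79Q mice from WT control, with 95% intervals of −0.064 to 0.14 and −0.11 to 0.071. Nr3c2 differed by 0.016 in 18Q and 0.0055 in 79Q mice, with intervals of −0.094 to 0.13 and −0.094 to 0.10. The intervals of both receptors thus ended within 0.14 of 0 on the log2 scale. Zbtb16 differed by 0.016 in 18Q and −0.11 in 79Q mice. Pdk4 averaged 8.87 ± 0.22 in 18Q and 8.77 ± 0.15 in 79Q mice, against 8.81 ± 0.41 in WT control mice (SD), which fell into 3 low arrays at 8.49, 8.51 and 8.56 and replicates 5 and 7 at 9.35 and 9.15. Without these 2 arrays Pdk4 differed by 0.35 in 18Q (adjusted p = 0.214) and 0.25 in 79Q mice (adjusted p = 0.361), and the sign in 79Q was then turned.

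Of the 8 genes other than Hif3a, 0 were called after adjustment in 18Q vs. WT control, where 2.11% of all probe sets were, and 1 was called in 79Q vs. WT control, where 2.07% were. At an unadjusted limma p under 0.05, 2 of the 8 were lower in 18Q mice and 4 in 79Q mice and 0 were higher. Of all 34760 probe sets, 2258 were lower and 2138 higher in 18Q mice (12.6% in either direction). In 79Q mice 2888 were lower and 1964 higher (14.0% in either direction). The median log2 difference of the 8 was −0.056 in 18Q and −0.13 in 79Q mice, with a median over all probe sets of −0.011 and −0.016. Levels moved beside other cell types: the microglia and immune cell markers were higher in the same mice by the amounts given above, 15 hypothalamus markers averaged 0.21 lower in 18Q and 0.30 lower in 79Q mice, and 10 neuron markers 0.10 and 0.069 lower. Their part in the lower Fkbp5, Sgk1, Tsc22d3 and Klf9 readings was not tested, and in bulk tissue fewer cells of a type and less RNA per cell cannot be told apart.

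**Figure D2:**
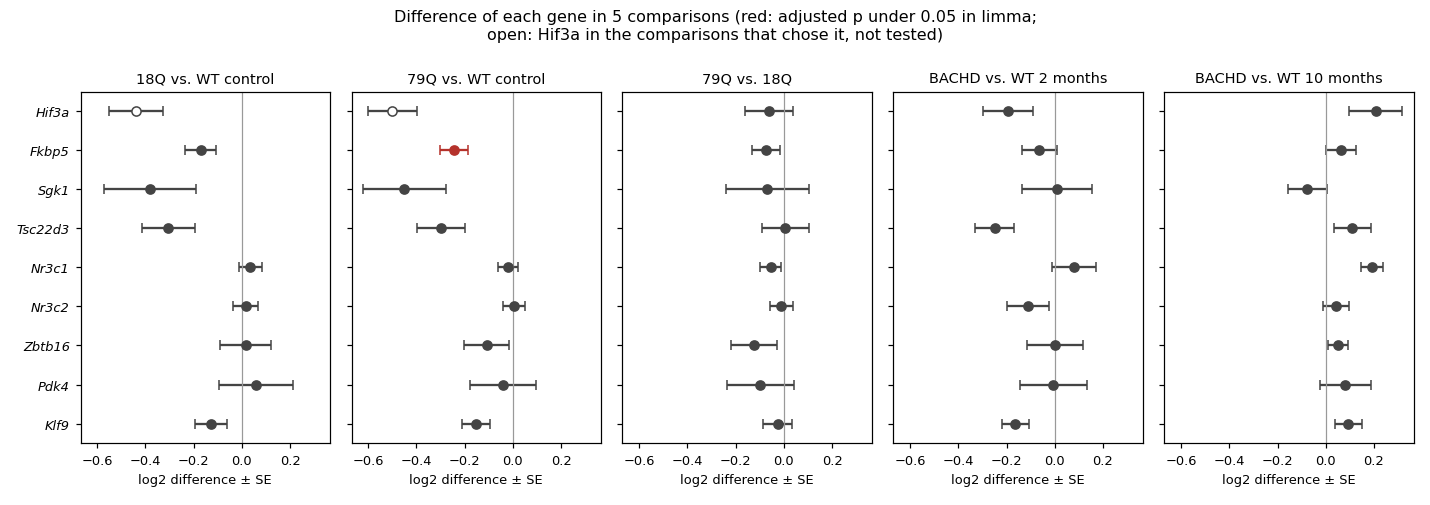
Log2 difference with its standard error (x axis) of the 9 genes (y axis) in the 5 comparisons. Fkbp5 in 79Q vs. WT control (−0.24) is the only point past the adjusted threshold, the open points of Hif3a were not tested, and all points of 79Q vs. 18Q lie between −0.12 and 0.0067.

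The mutant and the wild-type fragment were compared directly in 79Q vs. 18Q, where the difference of means does not involve the uninjected mice. The limma spread was estimated over the 18Q, 79Q and WT control arrays together. The uninjected mice thus enter the SEs, intervals and limma p-values here, but not the exact permutation p-values. None of the 9 genes was called (adjusted p = 1 for each), 0 had an unadjusted limma p under 0.05, and 0% of all probe sets passed the adjusted and 4.24% the unadjusted threshold. The differences ranged between −0.12 (Zbtb16, 95% interval −0.32 to 0.074) and 0.0067 (Tsc22d3, interval −0.20 to 0.22). Hif3a differed by −0.061 (SE 0.10, interval −0.27 to 0.15, exact permutation p = 0.472) and Fkbp5 by −0.073 (SE 0.058, interval −0.20 to 0.049, exact permutation p = 0.231). The intervals leave differences of up to these bounds undecided at this number of mice, and that Fkbp5 passed the threshold in 79Q mice and not in 18Q mice does not show a difference between them.

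In BACHD mice at 2 months of age, Tsc22d3 and Klf9 were lower in all 6 mice than the mean of their WT mice, although neither passed the adjusted threshold. Tsc22d3 read 8.49 at the lowest, 8.68 at the median and 8.91 at the highest in BACHD mice, against 8.74, 8.97 and 9.11 in WT mice. Klf9 read 10.23, 10.28 and 10.34 in BACHD mice, against 10.32, 10.45 and 10.55 in WT mice at the same points. The groups overlapped for both genes, for Klf9 only at the edge. The differences were −0.25 (SE 0.082, exact permutation p = 0.0130) for Tsc22d3 and −0.16 (SE 0.055, exact permutation p = 0.00649) for Klf9, each with a limma adjusted p of 0.939. Hif3a differed by −0.19 (SE 0.10, adjusted p = 0.939, exact permutation p = 0.117), with 5 of 6 BACHD mice below the WT mean. Of all probe sets, 0% passed the adjusted and 4.09% the unadjusted threshold, and 2 of the 9 genes passed the unadjusted one.

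The 95% intervals of Hif3a and of the other 6 genes held 0 at 2 months. Nr3c1 differed by 0.079 and Nr3c2 by −0.11, and Fkbp5 by −0.063. Sgk1, Zbtb16 and Pdk4 differed by 0.0093, 0.0011 and −0.0051, and their signs depended on the processing. The median over the 9 genes was −0.063, against −0.034 over all probe sets. Array medians at 2 months ranged between 7.16 and 7.29 in BACHD mice and between 7.16 and 7.41 in WT mice, and with each array centred on its median the differences were −0.20 for Tsc22d3 and −0.11 for Klf9. The 12 thalamus markers averaged 0.30 lower in BACHD than in WT mice in this set, with overlapping groups, and their part was not tested.

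At 10 months of age Nr3c1, the glucocorticoid receptor, was higher in BACHD mice without overlap. Nr3c1 read 9.82, 9.72, 9.72, 9.67 and 9.76 in BACHD mice, against 9.54, 9.59 and 9.51 in WT mice. The difference was 0.19 (SE 0.045, 95% interval 0.086 to 0.29), and the exact permutation p of 0.0179 is the smallest that 5 against 3 mice can give. It did not pass the adjusted threshold in limma (adjusted p = 0.997), and 1.93% of all probe sets were likewise higher in BACHD mice without overlap. Left-out arrays gave differences between 0.17 and 0.21. The thalamus markers were 0.36 higher in BACHD mice in this set, with overlapping groups (8.69 to 9.57 in BACHD and 8.41 to 9.07 in WT mice), and their part was not tested. Within this set the group-centred r of Nr3c1 with those markers was −0.034 over 8 arrays, against 0.58 over all 38. Group centring removes the difference between BACHD and WT mice, so nothing on that difference was read from this r.

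Hif3a read 6.39, 6.41, 6.39, 6.24 and 6.25 in BACHD mice, against 5.83, 6.31 and 6.26 in WT mice at 10 months, so that 1 low WT array carried much of the difference of 0.21 (SE 0.11, adjusted p = 0.997, exact permutation p = 0.125). Without WT replicate 1 it was 0.056. In all, 8 of the 9 genes were higher in BACHD mice, by between 0.042 and 0.21, and Sgk1 was lower by 0.076 (difference −0.076), with a median of 0.082 against 0.0071 over all probe sets. Only Nr3c1 had an unadjusted p under 0.05, which 4.55% of all probe sets had, while 0% passed the adjusted threshold.

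The change of the BACHD effect with age was tested as the effect at 10 months minus that at 2 months, in 1 fit over both ages. The 2 ages were taken as normalized separately, so that effects within each age were compared and not levels. Tsc22d3 differed by 0.36 (SE 0.12), Klf9 by 0.26 (SE 0.079) and Hif3a by 0.40 (SE 0.16), each lower in BACHD mice at 2 months and higher at 10 months. Hif3a was at 0.25 without WT replicate 1 at 10 months. Some tissue markers moved the same way in this contrast, with a median of 0.60 over 12 thalamus, 0.51 over 6 pituitary and 0.20 over 8 choroid plexus markers. Medians of the other marker lists were 0.12 for immune cells, 0.056 for microglia and macrophages and 0.035 for neurons. They were 0.023 for endothelium and pericytes, 0.0096 for astrocytes, −0.010 for hypothalamus and −0.029 for oligodendrocytes. The part of these tissues and cells was not tested. All 5 BACHD mice were above the WT mean for Tsc22d3 and Hif3a at 10 months and 4 of 5 for Klf9. These were the 3 of the 9 genes with an unadjusted p under 0.05, against 2.62% of all probe sets. None passed the adjusted threshold (adjusted p = 0.9996 for each), nor did any probe set (0%). The median difference of the 9 genes was 0.13, against 0.042 over all probe sets.

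Levels of the genes also varied together among mice of the same group over the pooled arrays, less so at 2 months (median r 0.0381). After subtraction of each group's mean, 28 of the 36 pairs of genes correlated above 0 over the 38 arrays, with a median r of 0.273, against 62% of all pairs among 19937 genes, with a median r of 0.085. Without the WT control group 25 of the 36 were above 0 with a median r of 0.169, against 62.3% and 0.089 over all pairs of genes. The arrays of a set share their normalization and dissection, and the values below are a description of these arrays. Sgk1 and Pdk4 were the closest pair (r = 0.75, permutation p = 4e-05, rho = 0.68, permutation p = 0.00014). Their r was 0.83 in the AAV set, 0.62 at 2 months and 0.78 at 10 months, and 0.68 without the 2 arrays farthest from the median of Sgk1. WT control replicates 5 and 7, high for both genes, lay among the highest points, and r was 0.64 without the WT control group.

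By Pearson's r Hif3a correlated most with Tsc22d3 (r = 0.55, permutation p = 0.00341, rho = 0.51, permutation p = 0.00528) and with Zbtb16 (r = 0.53, permutation p = 0.00402, rho = 0.53, permutation p = 0.00401). The pair with Tsc22d3 had r = 0.80 in the AAV set, 0.31 at 2 months and 0.023 at 10 months, whereas that with Zbtb16 had 0.62, 0.49 and 0.45. Without the 2 farthest arrays they were 0.60 and 0.46, and without the WT control group 0.35 and 0.43, so their order depended on that group. Hif3a and Pdk4 had r = 0.49 (permutation p = 0.0183, rho = 0.53, permutation p = 0.00587) and 0.28 without the WT control group. Hif3a and Sgk1 had r = 0.47 (permutation p = 0.0368, rho = 0.49, permutation p = 0.0109) over all arrays but 0.16 without the WT control group. Hif3a and Fkbp5, both lower in 79Q mice, had r = 0.25 (permutation p = 0.202, rho = 0.18). With Nr3c1 Hif3a had r = −0.32 (permutation p = 0.0965, rho = −0.28).

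**Figure D3:**
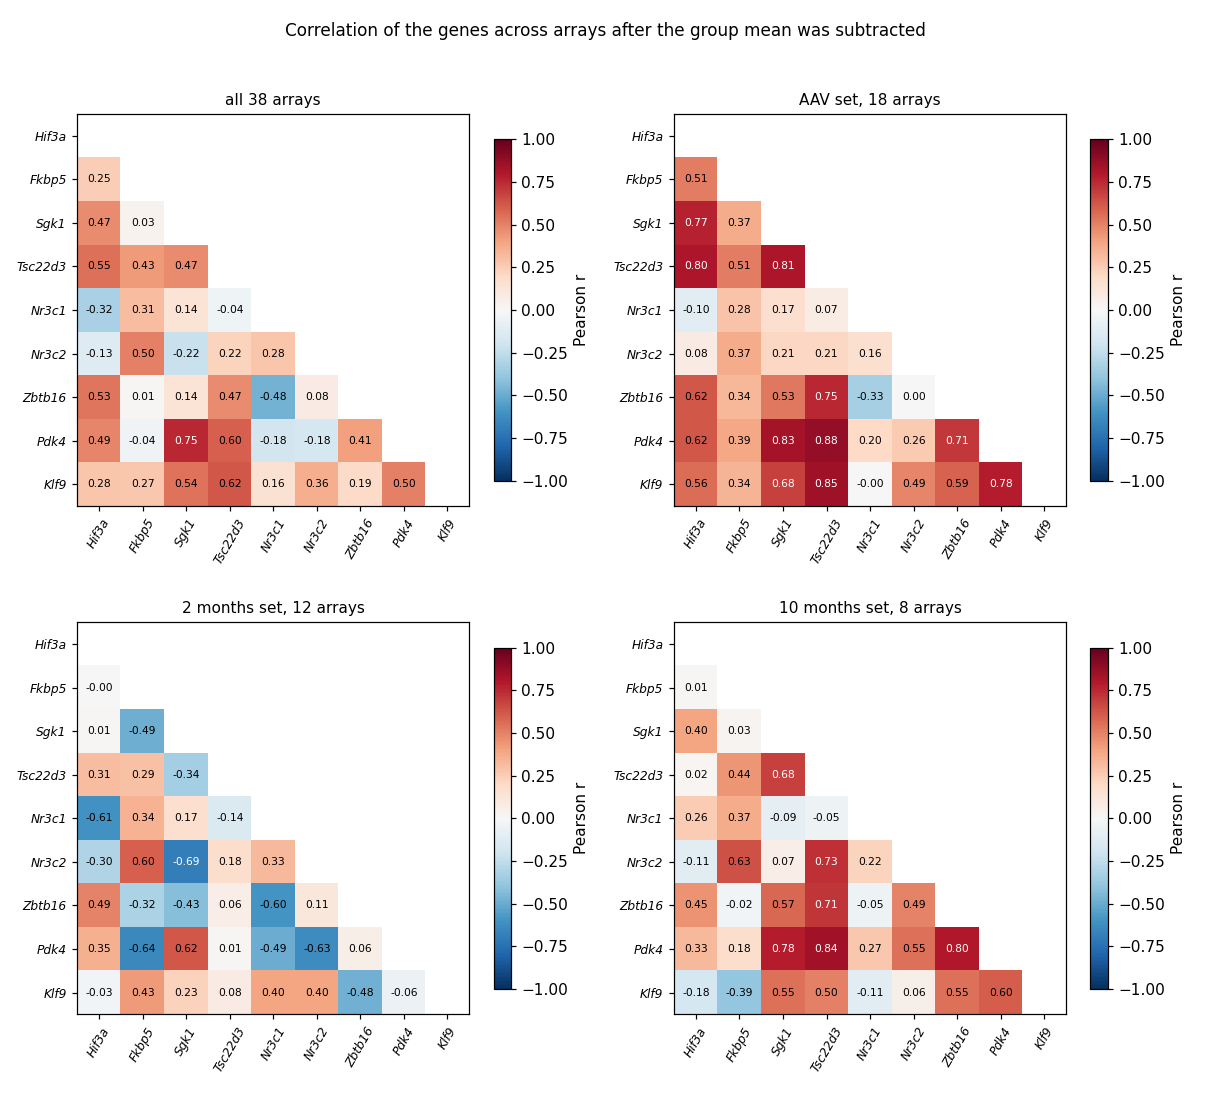
Pearson r of each pair of the 9 genes across arrays, after subtraction of the group mean, for all 38 arrays and for the AAV, 2 months and 10 months sets (colour scale −1 to 1). Sgk1 and Pdk4 are positive in every set, and more pairs are positive in the AAV set (33 of 36) than at 2 months (20 of 36).

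Tsc22d3 and Klf9 (r = 0.62, permutation p = 0.00017, rho = 0.59, permutation p = 0.00052) and Tsc22d3 and Pdk4 (r = 0.60, permutation p = 0.00187, rho = 0.60, permutation p = 0.00086) followed. Their r was 0.85 and 0.88 in the AAV set and 0.50 and 0.84 at 10 months, but 0.081 and 0.014 at 2 months, so the pooled values do not describe the 2 months arrays. In the 13 injected mice alone both stayed at 0.82. Over sets, 33 of 36 pairs were above 0 in the AAV set (median r 0.439), 20 at 2 months (median 0.0381) and 28 at 10 months (median 0.35). The share over all pairs of genes was not computed by set, so these counts have no matching background. Fkbp5 correlated most with Nr3c2 (r = 0.50, permutation p = 0.00504, rho = 0.45, permutation p = 0.00783), with r between 0.37 and 0.63 in the sets and 0.30 without the 2 farthest arrays. The lowest r was that of Nr3c1 with Zbtb16 (r = −0.48, permutation p = 0.016, rho = −0.39, permutation p = 0.0306), at −0.33, −0.60 and −0.047 in the AAV, 2 months and 10 months sets.

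**Figure D4:**
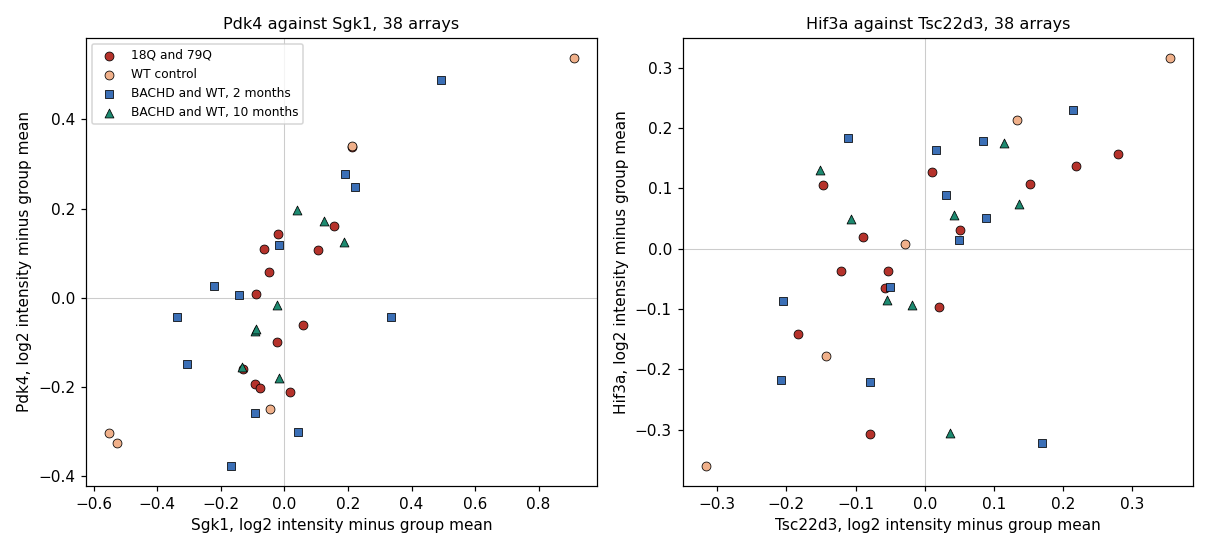
Log2 intensity minus the group mean on each of the 38 arrays, Pdk4 (y) against Sgk1 (x) at left and Hif3a (y) against Tsc22d3 (x) at right, with colour and marker by set. Pdk4 rises with Sgk1 over all arrays (r = 0.75), and WT control arrays lie at both ends of each plot.

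Some of the shared variation went with tissue markers. Tsc22d3, Pdk4 and Klf9 correlated with the mean of 11 oligodendrocyte markers, myelin genes such as Mbp and Mog (r = 0.43, 0.42 and 0.38 over 38 arrays, permutation p = 0.00853, 0.00373 and 0.0231). In the 13 injected mice those r were 0.70, 0.81 and 0.62, and at 2 months 0.19, 0.19 and −0.20. Hif3a had r = −0.16 with the same markers (permutation p = 0.327). The oligodendrocyte list did not stand alone in the injected mice. There Pdk4 had r = 0.83 with endothelium and pericyte and 0.80 with astrocyte markers. With neuron markers r was 0.68 for Tsc22d3 and 0.63 for Klf9. With microglia and macrophage markers it was 0.13, 0.54 and −0.0044 for Tsc22d3, Pdk4 and Klf9. Over 38 arrays Klf9 had r = 0.46 with neuron markers (permutation p = 0.00562). Nr3c1 had r = 0.58 with the thalamus markers (permutation p = 0.00272, rho = 0.42), 0.39 in the AAV set and 0.68 at 2 months but −0.034 at 10 months, so the pooled value does not describe the 10 months arrays. These are values from 54 pairs of a gene and a marker list, without adjustment, and their part in the correlations between the genes was not tested.

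By the same group-centred r over 38 arrays, the genes most like Hif3a among 19936 were Nova2 (r = 0.72), a neuronal splicing regulator, Per1 (0.69), a component of the circadian clock, Prr3 (0.66), Eif4ebp2 (0.64), a repressor of translation initiation, and Pura (0.62), a nucleic acid binding protein. Per1 is also on the list of other glucocorticoid-induced genes read below. It was alike in each set, with r = 0.76, 0.57 and 0.74 in the AAV, 2 months and 10 months sets. The lowest r were those of Prps2 (−0.65), an enzyme of nucleotide synthesis, Oxct1 (−0.62), an enzyme of ketone use, and Zfp110 (−0.62), a zinc finger gene. Of 34759 probe sets fitted against Hif3a in limma, 0% passed the adjusted threshold. Among the other members Tsc22d3 ranked 25, Zbtb16 38, Pdk4 70 and Sgk1 91 in likeness to Hif3a. Klf9 ranked 913, Fkbp5 1245, and the receptors Nr3c2 12002 and Nr3c1 18135 of the 19936 genes.

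The genes most like Fkbp5 were Mark2 (r = 0.72), a kinase of microtubule regulation, Dhx8 (0.72), an RNA helicase of splicing, Krba1 (0.71), Ap4e1 (0.71), a subunit of a vesicle adaptor, and Flvcr1 (0.70), a membrane transporter, each with an adjusted p of 0.0429 in limma. Fits against Fkbp5 called 95 probe sets (0.273%), 94 of them positive, and none was of the 8 other members. The r of Mark2 was 0.67, 0.84 and 0.48 in the AAV, 2 months and 10 months sets and that of Dhx8 0.63, 0.95 and 0.25. At the other end stood Cldn6 (−0.57), a tight junction protein, Slc13a4 (−0.54), a sulfate transporter, and Fbxl18 (−0.53), an F-box protein.

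The other genes of the pathway were read against the 2.11% of all probe sets called in 18Q vs. WT control and the 2.07% called in 79Q vs. WT control. Of 13 measured receptor chaperones and co-chaperones 0 passed the adjusted threshold in either injected group. Their smallest p-values were those of 2 co-chaperones of Hsp70, Dnaja1, at −0.17 in 79Q vs. WT control (SE 0.054, adjusted p = 0.118), and Dnajb1, at 0.25 in 18Q vs. WT control (SE 0.090, adjusted p = 0.215). Of 11 receptor coregulators 0 passed, with Ncoa3, a coactivator, at 0.17 in 18Q (SE 0.056, adjusted p = 0.159) and 0.15 in 79Q mice (SE 0.051, adjusted p = 0.168), and Ep300, an acetyltransferase, at 0.081 in 18Q mice (SE 0.041, adjusted p = 0.438). Of 12 genes of steroid metabolism and transport 0 passed. Cyp7b1, a steroid hydroxylase, was at 0.26 in 18Q (SE 0.081, adjusted p = 0.132) and 0.017 in 79Q mice, and Serpina6, corticosteroid-binding globulin, at 0.17 in 79Q mice (SE 0.063, adjusted p = 0.209). The mean levels of Serpina6, 4.81 in 79Q and 4.64 in WT control mice, lay below the array medians.

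Of 16 stress axis peptides and receptors, 1 fell in 79Q vs. WT control, where 2.07% of all probe sets were called, and 0 passed in 18Q vs. WT control, where 2.11% were. It was Adcyap1r1, the receptor of the peptide PACAP, at 11.14 in 79Q against 11.37 in WT control mice (difference −0.22, SE 0.042, adjusted p = 0.00605), and it differed by −0.17 in 18Q mice (SE 0.047, adjusted p = 0.0881). Crh, given for its place in the axis and outside the naming rule for this list, was at −0.13 in 18Q (SE 0.086, adjusted p = 0.603) and −0.23 in 79Q mice (SE 0.077, adjusted p = 0.159). The median of this list was −0.11 in 18Q and −0.18 in 79Q mice, against −0.011 and −0.016 over all probe sets. The list shares 4 of its 16 genes, Crh, Avp, Oxt and Pomc, with the hypothalamus markers, which averaged 0.21 lower in 18Q and 0.30 lower in 79Q mice, and their part in this median was not tested.

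Of 27 other glucocorticoid-induced genes, Lcn2 was the only one called, and it rose in both groups. Lcn2, the siderophore-binding protein lipocalin 2, which inflammation also induces, was at 6.94 in 18Q and 6.77 in 79Q mice, against 6.46 in WT control mice (differences 0.49, SE 0.085, adjusted p = 0.00295, and 0.31, SE 0.077, adjusted p = 0.0431). The list had a median of −0.0096 in 18Q and −0.061 in 79Q mice. Its count of 1 of 27 in each group stood beside 2.11% of all probe sets called in 18Q and 2.07% in 79Q vs. WT control, so nothing particular to these genes was read from it.

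On the side of Hif3a, 0 of 11 genes of the hypoxia-inducible factor system were called, with Arnt2, a neuronal partner of the alpha subunits, at −0.093 in 18Q (SE 0.036, adjusted p = 0.251) and −0.12 in 79Q mice (SE 0.032, adjusted p = 0.0764), and Arntl, a clock gene of the same family, at 0.088 in 18Q (SE 0.045, adjusted p = 0.445) and 0.073 in 79Q mice (SE 0.040, adjusted p = 0.447). Of 15 hypoxia-induced genes 2 rose in 18Q vs. WT control, where 2.11% of all probe sets were called, Hk2, a hexokinase, by 0.35 (SE 0.081, adjusted p = 0.0242) and P4ha1, a collagen prolyl hydroxylase, by 0.29 (SE 0.060, adjusted p = 0.0110). In 79Q mice 0 of 15 passed, with Hk2 at 0.23 (SE 0.073, adjusted p = 0.136) and P4ha1 at 0.16 (SE 0.054, adjusted p = 0.172). Of 17 paralogs of the members 0 were called, with Sgk3, a kinase related to Sgk1, at 0.29 in 18Q mice (SE 0.097, adjusted p = 0.167) and Pgr, the progesterone receptor, at −0.20 in 18Q mice (SE 0.078, adjusted p = 0.268). In 79Q vs. 18Q and in BACHD mice at either age 0 genes of these lists passed the adjusted threshold. There 0% of all probe sets passed, so nothing was read from these counts.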

How the data were processed

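RNA of 38 hypothalami was hybridised to Affymetrix Mouse Gene ST arrays. The deposited log2 intensities come from the authors' RMA run (R 4.1.1, affy 1.70.0), which corrects the background, quantile-normalizes the arrays of a run and summarises probes by median polish; limma 3.48.3 is named for their tests. No 2 arrays of different sets shared a value while pairs of arrays within sets shared between 0 and 22, so the 3 sets were taken as normalized apart; this is an inference. The number of arrays, not a read depth, limits the precision. The limma p-values set a difference against the spread between mice, estimated over all groups of a fit and moderated over probe sets.

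Of 34760 probe sets, 21640 had 1 gene symbol, 1321 several and 11799 none in the platform annotation. The main test was limma 3.58.1 in R 4.3.3 (lmFit, contrasts, eBayes) within each set, without covariates, after the methods of the study, with Benjamini-Hochberg adjustment over all probe sets at 0.05, checked on simulated data. Exact two-sided permutation tests were run on 43 member values (8 under 0.05), beside 52 limma tests (1 adjusted and 12 unadjusted under 0.05). Correlations used values minus the group mean with 100000 permutations within groups. Members and the 18 gene lists were chosen with earlier results of these data known. Named were every member, for each list up to 4 genes past the threshold in an injected group or else the 2 with the smallest p, the 5 highest and 3 lowest r with Hif3a and Fkbp5, and marker genes at the extremes of level or spread. Alternatives were median centring of arrays, a filter on dim probe sets, eBayes with trend, array weights, fits of 2 groups or of both ages, a replicate block, and leaving out arrays.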

Additional observations from a re-analysis of the deposited data

Results flagged for a closer look

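Nr3c1 in BACHD mice at 2 months had 1 array apart from the others: replicate 2 read 9.61 against 9.41 for the next, a gap of 0.677 of the group's range, above the critical value for 6 arrays. It was 1 of 54 groups of a member's values examined, and chance gives about 1 in 20.

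The BACHD effect at 10 months minus that at 2 months was 0.402 for Hif3a, 0.36 for Tsc22d3 and 0.258 for Klf9 (log2), each with an unadjusted p under 0.05 in limma and an adjusted p of 0.9996. For Tsc22d3 all 5 BACHD mice lay above the WT mean at 10 months and all 6 below it at 2 months. Leaving out single arrays kept the sign, with ranges of 0.25 to 0.49 for Hif3a, 0.28 to 0.42 for Tsc22d3 and 0.23 to 0.28 for Klf9.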

How the results depend on the processing

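Of 54 log2 differences, 36 kept their direction under all alternatives run; over all, 1011 alternative values were computed. The only called gene, Fkbp5 in 79Q vs. WT control, stayed between −0.27 and −0.20 with an adjusted p between 0.0148 and 0.197 over 20 alternatives, and passed the threshold in 10. The count of genes past the threshold there was 1, but 0 with the replicate block, 0 without WT control replicates 5 and 7 (chosen after seeing the data) and 0 to 1 with single arrays left out. The causes were not tested. Each gene had a single probe set, so choosing another was not possible, and Hif3a lay below the filter on dim probe sets and has no value there.

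The deviations of same-numbered mice correlated between −0.311 and 0.28, and 2 of these values were over 0.1. Such values cannot exclude a pairing, and the labels do not give one, so mice were treated as unpaired in the main test. The replicate block turned 1 other value, Tsc22d3 in 79Q vs. 18Q, at −0.041, and changed no other call.

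Small, uncalled differences turned sign as follows. Centring arrays on their median gave, in 18Q vs. WT control, −0.017 for Nr3c2 and −0.0165 for Zbtb16, in 79Q vs. WT control −0.015 for Nr3c2, in 79Q vs. 18Q 0.0014 for Nr3c2, at 2 months 0.0445 for Pdk4, and −0.0085 for Zbtb16 in age by genotype. Array weights gave −0.0021 for Nr3c2 in 18Q vs. WT control, 0.011 for Nr3c2 and 0.015 for Klf9 in 79Q vs. 18Q, −0.098 for Sgk1 and −0.029 for Zbtb16 at 2 months, −0.0061 for Nr3c2 and −0.0019 for Pdk4 at 10 months, and 0.016 for Sgk1 in age by genotype. Without WT control replicates 5 and 7, 79Q vs. WT control gave 0.026 for Zbtb16 and 0.25 for Pdk4.

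With single arrays left out, the ranges that crossed 0 were, in 18Q vs. WT control, −0.0061 to 0.036 (Nr3c2), −0.045 to 0.091 (Zbtb16) and −0.027 to 0.19 (Pdk4). In 79Q vs. WT control they were −0.040 to 0.0046 (Nr3c1), −0.021 to 0.027 (Nr3c2) and −0.12 to 0.094 (Pdk4), and in 79Q vs. 18Q −0.039 to 0.076 (Tsc22d3), −0.036 to 0.012 (Nr3c2) and −0.052 to 0.0036 (Klf9). At 2 months they were −0.058 to 0.11 (Sgk1), −0.068 to 0.074 (Zbtb16) and −0.080 to 0.093 (Pdk4), at 10 months −0.019 to 0.091 (Nr3c2) and −0.0077 to 0.18 (Pdk4), and in age by genotype −0.023 to 0.12 (Zbtb16) and −0.011 to 0.18 (Pdk4). Correlations that were positive over all arrays were −0.34 (Sgk1 and Tsc22d3) and −0.060 (Pdk4 and Klf9) at 2 months.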
